A study of Homo sapiens with 40 samples.

Results

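Chromatin accessibility was examined at the loci of 5 membrane mucin genes, MUC1, MUC4, MUC13, MUC16 and MUC20, in HER2-overexpressing breast cancer cells. Peaks of all 40 libraries were merged where they shared at least 1 bp, regions found in 2 or more libraries were kept, and a region was taken as a member if its midpoint lay in the body of one of the 5 genes or within 50 kb of either end. This gave 38 of the 71600 regions, with 16 in the window of MUC1, 10 in that of MUC4, 8 in that of MUC13, 4 in that of MUC16 and 5 in that of MUC20. All 5 regions of the MUC20 window were also in that of MUC4, because the genes are neighbours. Around the 5 genes, regions were taken by position and not by level. The genes themselves were chosen with earlier results of these data known.

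Accessibility had been measured by ATAC-seq, in which a transposase cuts open chromatin and leaves sequencing adapters. BT474 is an established line from a breast ductal carcinoma, and trastuzumab, an antibody against HER2, inhibits it. BT474R is 1 clone of it that grew in trastuzumab and is resistant, so a difference between the lines cannot be told apart from a difference between this clone and its parent population. In both lines all cells were serum starved and then collected untreated at 0 h (baseline) or after 1, 12 or 24 h with epidermal growth factor (EGF, the ligand of EGFR), heregulin (HRG, which binds HER3 and HER4) or water as vehicle (control). That made 20 groups of 2 libraries. The libraries of a group are duplicates with no stated separate origin, so p-values speak only of these libraries. Tests of the presence of a peak also pooled times, and between the lines treatments too, and counted each library as a replicate.

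Membrane mucins are long, heavily O-glycosylated proteins anchored in the apical surface of epithelial cells, where they form a protective coat and take part in signaling. MUC4 can bind HER2 and mask it from trastuzumab, and the cytoplasmic tail of MUC1 is phosphorylated by ErbB receptors and binds beta-catenin. MUC16 is the protein that carries the ovarian cancer antigen CA125. MUC13 is a mucin of the gut lining with EGF-like domains, and MUC20 is a small mucin that has been linked to MET signaling.

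For each region a library was open if it held a peak there. The level was the rank percentile of the highest peak in the region among all peaks of the same library, so that 100 is the strongest peak of the library and 0 stands for no peak. The peak lists held 47571 to 56846 peaks in BT474 and 32479 to 56494 in BT474R, and the 6 BT474R libraries at 12 h were the shortest as a set, at 32479 to 45808. Peak lists carry no read totals. Depth was therefore unknown, and the lack of a peak does not show that chromatin was closed. The promoters of all 12 luminal and HER2 markers examined (such as ERBB2, KRT8 and FOXA1) were open in all 40 libraries. Of 12 markers of blood, endothelial, fibroblast and basal cells, 2 promoters were open in all 40 libraries (CDH5 and COL1A1) and 5 in none.

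Of the 38 regions, 18 (47.4%) were open in all 40 libraries, against 35.1% of all regions. In BT474 25 were open in every library and 5 in none, and in BT474R the counts were 20 and 4. The median width was 724.5 bp, against 551 bp for all regions. Only 8 regions lay inside a mucin gene, 4 of them in MUC4, 2 in MUC1 and 2 in MUC20. The windows of MUC13 and MUC16 held no region inside the gene as GENCODE 44 draws it. A start of a mucin transcript lay within 1 kb of 3 regions, 2 at MUC1 and 1 at MUC20. No region lay that close to a GENCODE start of MUC4, MUC13 or MUC16. The remaining members belonged in part to neighbouring genes, and 15 of the 38 lay within 1 kb of the start of some gene, such as DPM3, KRTCAP2 and MTX1 beside MUC1 and ITGB5 beside MUC13.

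**Figure D1:**
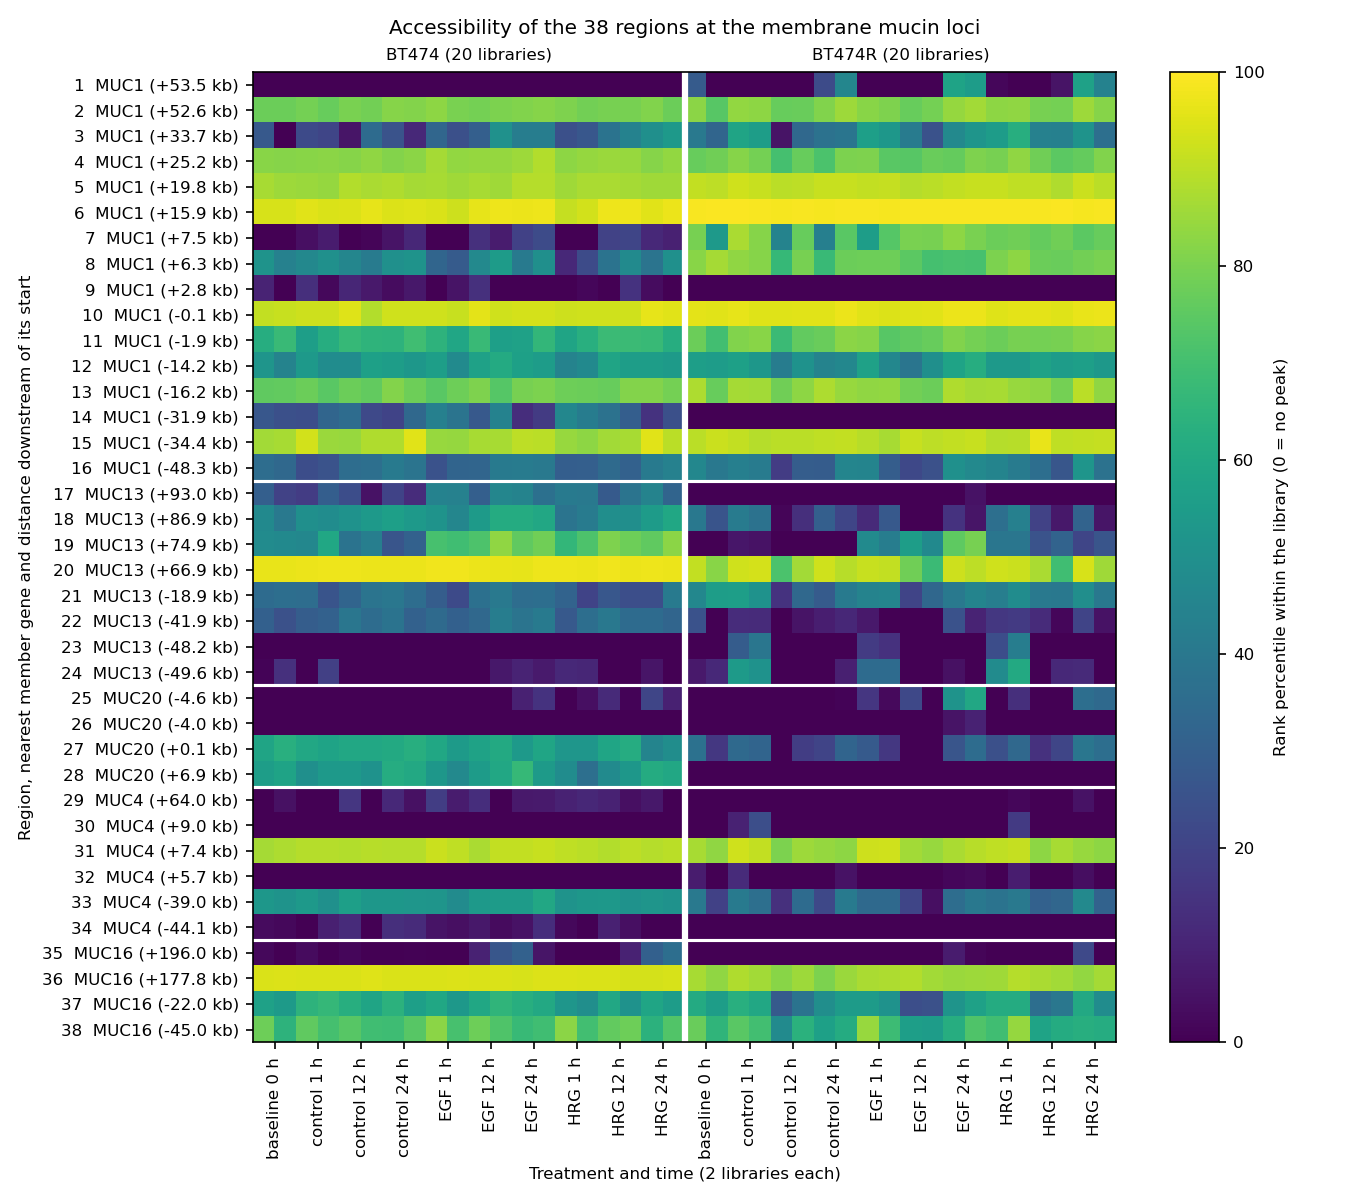
Rank percentile of each of the 38 regions (rows, numbered in genome order within a locus and labelled with the nearest mucin gene and the distance in kb downstream of its start) in each of the 40 libraries (columns, 2 per treatment and time). Dark cells have no peak. Regions 14 and 28 had a peak in all 20 BT474 libraries and in no BT474R library, and region 7 stood at a median of 6.6 in BT474 and 77.1 in BT474R.

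The sequences of the regions on which the comparisons below turn are given here, on the plus strand of GRCh38 and as 201 bases around the summit except where stated. The promoter of MUC1 is shown because it was open in every library. It is the RefSeq sequence (GRCh38.p14) of the 250 bases before the start, chr1:155192916-155193165 on the minus strand, and lies inside region 10. Capitals mark the SP/KLF letters GGGCGGG (4 matches, some overlapping each other and the AP-2 letters GCCNNNGGC) and the TEAD letters GGAATG. The SP/KLF letters, on either strand, were found in 31.5% of 35116 promoters of the same length.
MUC1 promoter: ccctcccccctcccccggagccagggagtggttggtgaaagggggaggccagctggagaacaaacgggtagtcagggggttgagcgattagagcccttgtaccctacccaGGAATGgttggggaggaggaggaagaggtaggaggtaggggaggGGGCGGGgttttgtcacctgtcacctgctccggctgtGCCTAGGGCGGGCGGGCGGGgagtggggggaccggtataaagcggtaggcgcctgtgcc

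Regions 9 and 28 are shown because both had peaks in BT474 alone and both are tandem repeats. In region 9, in the body of MUC1 (window chr1:155190070-155190270), 93.6% of bases were equal to the base 60 bp further on. In region 28, in an intron of MUC20 (window chr3:195727717-195727917), the share was 91.3% at a period of 40 bp. A share of at least 80% at a period of 10 to 100 bp was reached by 2 of the 38 members (5.26%) and by 64 of all 71600 windows (0.0894%). Capitals mark AP-2 letters in region 9, and in region 28 the GATA letters TTATCT, which recur in each unit and read AGATAA on the other strand, and AP-2 letters.
Region 9: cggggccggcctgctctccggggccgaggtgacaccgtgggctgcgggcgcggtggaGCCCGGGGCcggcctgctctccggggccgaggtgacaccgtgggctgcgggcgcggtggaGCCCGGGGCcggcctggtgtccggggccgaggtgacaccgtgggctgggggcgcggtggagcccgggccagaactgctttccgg
Region 28: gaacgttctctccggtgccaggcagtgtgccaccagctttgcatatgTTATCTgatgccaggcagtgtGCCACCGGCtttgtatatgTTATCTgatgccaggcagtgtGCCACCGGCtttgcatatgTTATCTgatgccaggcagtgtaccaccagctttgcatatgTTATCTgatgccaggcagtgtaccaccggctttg

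Region 31, in an intron of MUC4 (window chr3:195804368-195804568), is shown because it was the strongest region of the gene. Capitals mark a pair of matches to the STAT letters TTCNNNGAA, found in 5.4% of all windows, and 1 to the AP-2 letters. Regions 14 (in GBAP1, window chr1:155224737-155224937) and 17 (in ITGB5, window chr3:124860723-124860923) were open in BT474 and nearly absent in BT474R. Each holds the AP-1 letters TGANTCA and the TEAD letters GGAATG, in capitals. Of region 19, at an alternative start of ITGB5, the 78 bases chr3:124878720-124878797 outside the untranslated exon are shown with their AP-1 letters. AP-1 letters were found in 5 of the 38 members (13.2%) and in 16.3% of all windows.
Region 31: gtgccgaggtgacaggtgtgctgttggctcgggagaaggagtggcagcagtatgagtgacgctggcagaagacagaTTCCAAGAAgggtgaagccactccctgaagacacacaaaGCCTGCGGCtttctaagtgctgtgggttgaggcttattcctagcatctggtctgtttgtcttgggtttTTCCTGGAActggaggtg
Region 14: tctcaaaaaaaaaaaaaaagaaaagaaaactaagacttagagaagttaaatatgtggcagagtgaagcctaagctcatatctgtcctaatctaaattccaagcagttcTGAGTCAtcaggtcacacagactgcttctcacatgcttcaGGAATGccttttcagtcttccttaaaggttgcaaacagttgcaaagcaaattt
Region 17: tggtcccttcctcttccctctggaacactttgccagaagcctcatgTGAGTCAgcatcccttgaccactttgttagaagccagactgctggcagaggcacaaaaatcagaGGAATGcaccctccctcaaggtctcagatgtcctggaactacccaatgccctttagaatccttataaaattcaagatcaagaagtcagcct
Region 19: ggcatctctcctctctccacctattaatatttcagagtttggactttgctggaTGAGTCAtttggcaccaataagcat

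The lines were compared first, to ask which mucin regions differ between trastuzumab-sensitive and resistant cells. Around MUC1 the regions at both ends of the gene ranked higher in BT474R, while a distal region in the neighbouring pseudogene GBAP1 had no peak there. Around MUC4 and MUC20, 5 of the 6 regions called were lower or open less often in BT474R. Presence could differ at 15 of the 38 regions, and 12 of these were called (Fisher's exact test over 20 against 20 libraries, Benjamini-Hochberg adjusted p below 0.05), 4 open more often in BT474R and 8 less often. With equal numbers of top peaks per library the split was 6 and 7 (7034 and 7447 over all regions, against 8878 and 14566), and with baseline and control libraries alone it was 0 and 6 of 7 testable. Among all 32683 regions that could be tested, 71.7% were called, 27.2% more often and 44.6% less often. The level could be compared at the 18 regions open in all 40 libraries, and 16 were called by limma, 9 higher and 7 lower in BT474R, beside 82.8% of all 25166 such regions (32.6% and 50.2%). The share of members called was thus near the background in both tests. With equal numbers of top peaks 9 were higher and 5 lower (7946 and 8001 over all regions), with ranks per bp 6 and 7, and with baseline and control libraries alone also 6 and 7. The median difference was 2.13 percentile points over the 18 members and -1.51 over all 25166. With ranks per bp these medians were -1.59 and -1.82, so that the direction over the members turned.

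**Figure D2:**
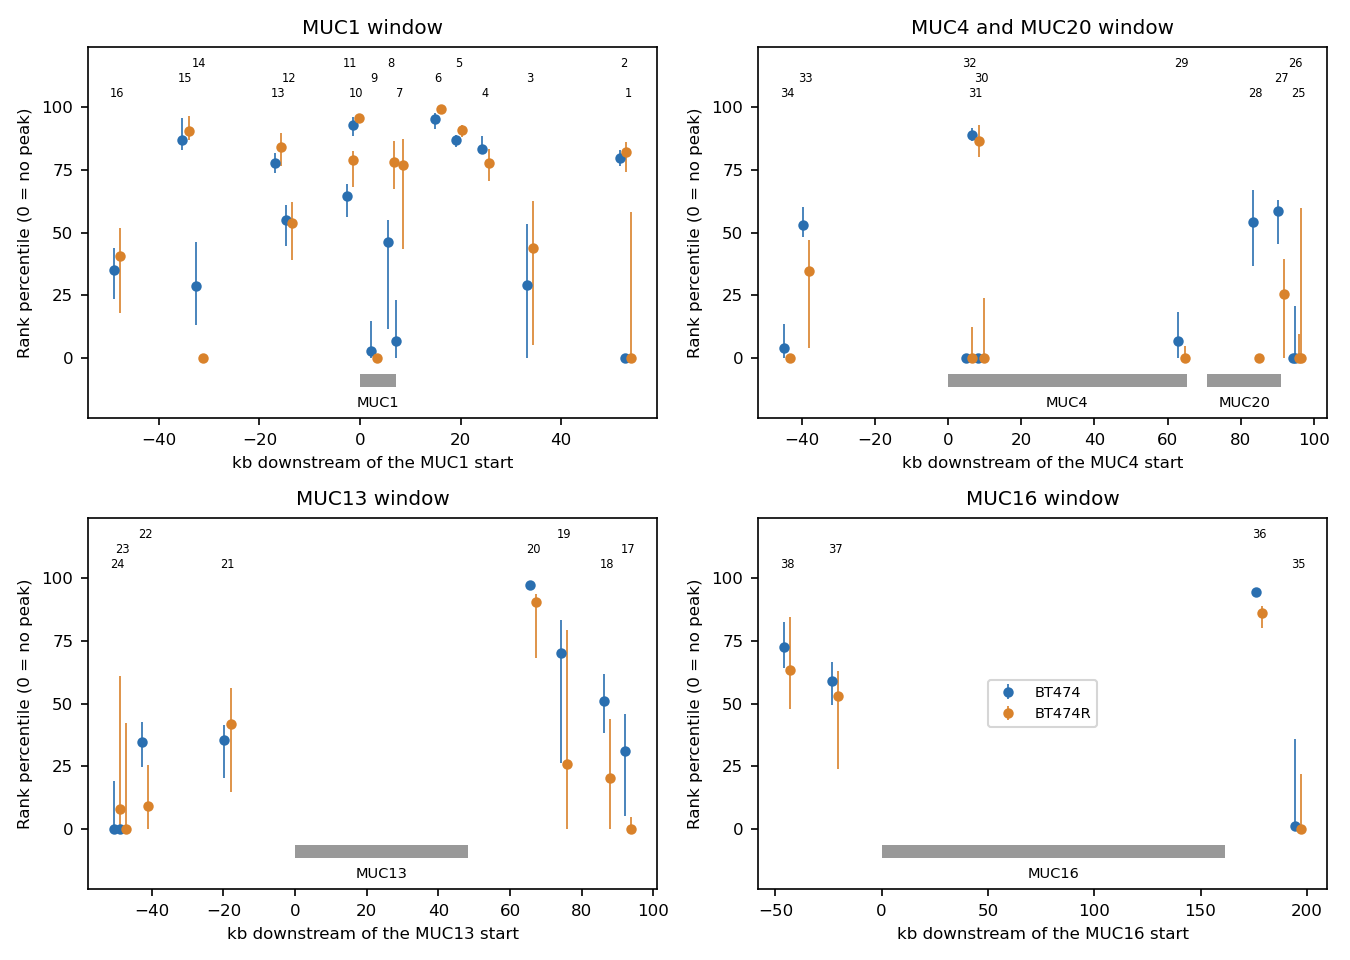
Median rank percentile (points) with the lowest and highest of 20 libraries (bars) in BT474 and BT474R for each region, drawn at its distance in kb downstream of the start of MUC1, MUC4, MUC13 or MUC16, with gene bodies in grey and region numbers above. Points of the lines are set slightly apart sideways. At region 8 in MUC1 the ranges were 11.4 to 55.0 and 67.2 to 86.5, and no region lay in the GENCODE bodies of MUC13 and MUC16 that are drawn.

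The MUC1 promoter, region 10 (chr1:155191879-155194105, -0.1 kb from the start), was open in all 40 libraries. Its percentile spanned 88.5 to 96.3 in BT474 (median 92.8), against 94.9 to 97.1 in BT474R (median 95.6). The ranges overlapped, and the difference of 2.90 points (SE 0.37) was called (limma, adjusted p = 1.83e-07). Region 8 (chr1:155186051-155187175), in the gene 6.3 kb downstream of the start and within 1 kb of an alternative MUC1 transcript start and of the start of the overlapping gene ENSG00000273088, differed more. Its 20 BT474 values lay between 11.4 and 55.0 (median 46.4), and the 20 of BT474R between 67.2 and 86.5 (median 78.0). Every BT474R library was above every BT474 library, and the difference was 35.1 points (SE 1.47, limma adjusted p = 4.14e-16).

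Region 7 (chr1:155184767-155186012), 38 bp beyond region 8 and just past the 3′ end of MUC1, was open in 13 of 20 BT474 and in all 20 BT474R libraries (Fisher's exact test, adjusted p = 0.0133). Its percentile was at most 23.0 in BT474 and between 43.3 and 87.2 in BT474R. The ranges did not overlap. The lowest BT474R values, 43.3 and 44.8, were in control libraries at 24 h and 12 h. Region 11, 1.9 kb upstream of MUC1 and within 1 kb of the microRNA gene MIR92B, spanned 56.2 to 69.5 in BT474, against 68.2 to 82.5 in BT474R, a difference of 14.4 points (SE 1.22, adjusted p = 1.44e-10).

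The tandem repeat of region 9, in the body of MUC1, was open in 12 BT474 libraries and in no BT474R library (adjusted p = 1.25e-04). It was weak where present, at most at percentile 14.8, near the lowest peaks that the lists hold. Region 14 in GBAP1, 31.9 kb upstream of MUC1, was open in all 20 BT474 libraries at percentiles of 13.2 to 46.3 and in none of BT474R (adjusted p = 1.91e-10). Region 1, near DPM3, was open in 9 BT474R libraries and no BT474 library (adjusted p = 0.00244). These included all BT474R libraries at 24 h, at percentiles of 23.0 to 58.1, and few at other times. The strongest region of the window was region 6 (chr1:155175993-155177959), in TRIM46 15.9 kb downstream of the MUC1 start, at a median of 95.3 in BT474 and 99.1 in BT474R (difference 3.75 points, SE 0.19, adjusted p = 1.25e-14). Region 5, at the shared start of KRTCAP2 and TRIM46, was higher by 4.02 points (SE 0.27). Region 4, in the same direction from MUC1 but between genes, was lower by -5.98 points (SE 0.81, adjusted p = 4.24e-07), but by -1.95 when ranked by −log10 p (adjusted p = 0.0981).

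In MUC4 no region lay within 1 kb of a start. The gene's strongest region, region 31 (chr3:195804092-195805140), lay in an intron 7.4 kb downstream of the start and was open in all 40 libraries. Its percentile spanned 86.4 to 91.8 in BT474 (median 89.1), against 80.1 to 92.8 in BT474R (median 86.4). The ranges overlapped and the BT474R values were more spread. The difference was -2.50 points (SE 0.46, limma adjusted p = 2.92e-05). On either side of it, region 32 was open in 7 BT474R libraries and in no BT474 library (adjusted p = 0.0133), and region 30 in 3 and none, which could not pass the test. Both were weak, at most at percentiles 12.5 and 23.9. Region 29, in an intron near the 3′ end of MUC4, was open in 14 BT474 and 2 BT474R libraries (adjusted p = 5.93e-04). It too was weak, at most at percentile 18.3.

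Upstream of MUC4, region 33 in the noncoding gene LINC01983 (39.0 kb from the MUC4 start) was open in all libraries, at 48.2 to 60.1 in BT474 and 4.0 to 47.1 in BT474R. The ranges did not overlap, and the difference was -21.0 points (SE 2.13, adjusted p = 3.54e-09). Region 34, 44.1 kb upstream, was open in 16 BT474 libraries and no BT474R library (adjusted p = 7.41e-07), but was weak, at most at percentile 13.5.

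The MUC20 promoter, region 27 (chr3:195720664-195721394), was open in all 20 BT474 libraries and in 17 of BT474R. Its percentile spanned 45.2 to 63.0 in BT474 (median 58.7), against 0 to 39.4 in BT474R (median 25.4), and the ranges did not overlap. Presence alone could not pass the test at such counts, and the level was not tested because 3 libraries had no peak. Those 3 libraries were 1 control and both EGF libraries of BT474R at 12 h, which were among the shortest lists. The tandem repeat of region 28 (chr3:195727428-195728095), 6.9 kb into MUC20, was open in all 20 BT474 libraries at percentiles of 36.5 to 66.9 with a median of 54.2, and in no BT474R library (adjusted p = 1.91e-10). With equal numbers of top peaks per library the counts were the same, and the part of list length was not otherwise tested. Reads from repeat units can align to more than 1 place, how such reads were treated is not given in the sources used here, and their part in the result was not tested.

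The MUC13 and MUC16 windows held regions of other genes. Those of MUC13 lay in ITGB5, the integrin beta 5 subunit, and in HEG1, itself a mucin-like membrane protein. The ITGB5 promoter, region 20 (chr3:124885870-124888013), was the strongest of the window. It stood at 96.5 to 98.0 in BT474 (median 97.2) and 68.3 to 93.8 in BT474R (median 90.5). The difference was -10.6 points (SE 1.32, limma adjusted p = 9.96e-08). The lowest BT474R values, 68.3 to 78.2, were all at 12 h, where the lists were shortest. Region 17 in an ITGB5 intron was open in all 20 BT474 libraries and in 1 of BT474R (adjusted p = 2.64e-09). Region 19, an alternative ITGB5 start, was open in 20 and 14 (adjusted p = 0.0287). In HEG1, region 23 was open in 6 BT474R libraries and no BT474 library (adjusted p = 0.0287). Those were the BT474R libraries at 1 h, of all arms, and the region had no peak at baseline, 12 h or 24 h. The test pools all times, so this difference was seen at 1 h alone. Region 21, also in HEG1, was 8.46 points higher in BT474R (SE 1.97, adjusted p = 4.01e-04).

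In the MUC16 window the strongest region was region 36 (chr19:8831828-8833254), at the start of MBD3L1 and ZNF558. It spanned 93.7 to 95.3 in BT474, against 80.3 to 89.0 in BT474R, with no overlap, and differed by -8.55 points (SE 0.42, adjusted p = 7.10e-15). Region 35, in ZNF558, was open in 11 BT474 and 3 BT474R libraries (adjusted p = 0.0287). Regions 37 and 38 lie upstream of the GENCODE model of MUC16 but inside the longer RefSeq model, which ends at position 9065751. They differed by -9.46 (SE 1.27, adjusted p = 3.42e-07) and -7.26 points (SE 1.97, adjusted p = 0.00173). Without the 6 BT474R libraries at 12 h these were -2.03 (adjusted p = 0.181) and -3.59 (adjusted p = 0.131), and the call of region 35 was also lost (adjusted p = 0.101).

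Further members lay at the starts of neighbouring genes or could not be tested. In level, region 13, at the start of MTX1, was higher in BT474R by 5.89 points (SE 0.90), but by 1.08 with ranks per bp (adjusted p = 0.805). Region 15, at the start of GBAP1, was higher by 2.71 points (SE 0.72), a call lost with ranks per bp (2.22, adjusted p = 0.0998) and with baseline and control libraries alone (1.82, adjusted p = 0.244). Region 2, at DPM3, was higher by 1.54 points (SE 0.64, adjusted p = 0.0305), a call lost in 11 of 49 alternatives and turned to -6.47 points with ranks per bp. It was lost, at 1.11 to 1.44 points, without replicate 2 of control, HRG or EGF at 1 h or of HRG at 24 h in BT474, and without replicate 1 of baseline or of HRG at 24 h, or replicate 2 of EGF at 12 h or of control or EGF at 24 h, in BT474R. Region 12, at THBS3, was not called, with a difference of -0.87 points (SE 1.27). In presence, regions 22, 24 and 25 could be tested and were not called, at 15, 12 and 10 of 20 BT474R libraries against 20, 9 and 7 of BT474 (region 22, Fisher's exact test, adjusted p = 0.0597). For regions 3, 18, 26, 27 and 30 the number of open libraries was too high or too low for a test of presence.

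Regions within 5 Mb of each gene, members left out, were described beside these values. Around MUC1 57 of them were open more often in BT474R and 50 less often, and the median difference in level was 1.21 points. Around MUC4 and MUC20 the counts were 22 and 80 with a median of -6.50, around MUC13 55 and 136 with a median of -7.71, and around MUC16 42 and 128 with a median of -3.45. Of the MUC1 surroundings compared in level, 68.0% were higher in BT474R, beside 40.8% of all regions. The surroundings thus moved in the direction of most called members at every locus, MUC1 included. Region 8 lay above the 95th percentile of the MUC1 surroundings, which was 15.9 points, and region 33 within the range around MUC4, whose lowest 5% lay below -30.0. DNA copy number was not measured here, and its part in these differences was not tested.

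**Figure D3:**
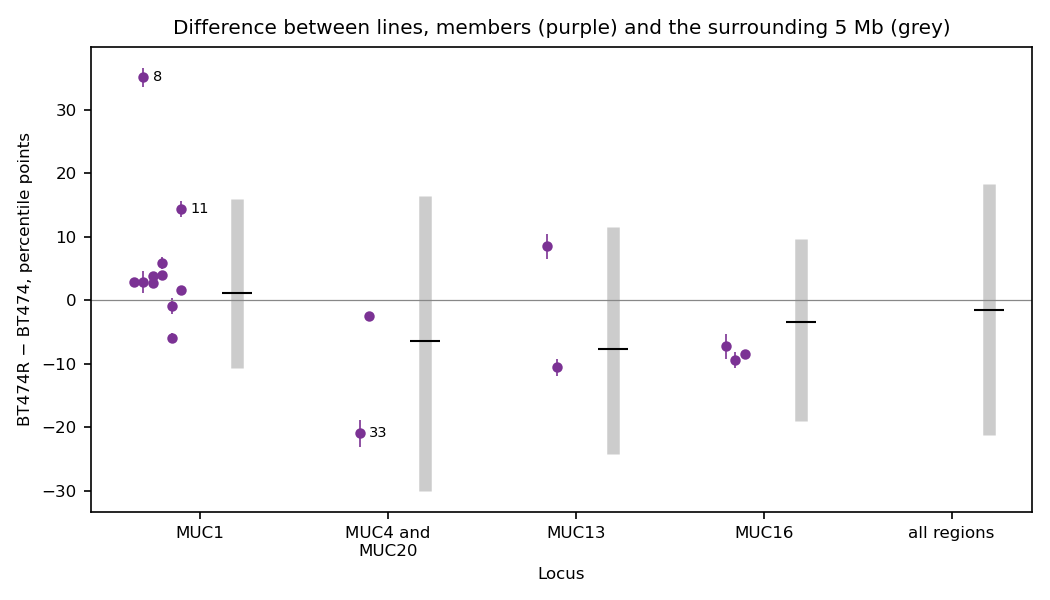
Difference in rank percentile, BT474R minus BT474, with its SE for the 18 members open in all 40 libraries (purple), beside the median (black line) and the span from the 5th to the 95th percentile (grey bar) of the regions within 5 Mb of the locus and of all 25166 regions. Region 8 in MUC1 stands at 35.1, region 11 at 14.4 and region 33 upstream of MUC4 at -21.0.

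Each ligand was then compared with control in each line, to ask whether EGF or HRG changes accessibility at these loci. EGF and HRG were set against the same control libraries in each line. In BT474 the largest changes called were at the ITGB5 regions of the MUC13 window, which rose after both ligands, while the MUC1 region 8 and the MUC20 promoter fell after HRG. Region 3, between genes in the MUC1 window, had BT474 means of 20.3 in control, 37.1 after EGF and 39.6 after HRG. Its level was not tested because 1 baseline library had no peak. The MUC1 promoter and the strongest MUC4 region differed by under 2 points in BT474, averaged over times. In BT474R no member was called in any of these comparisons.

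With the 3 times pooled (6 against 6 libraries), presence called no member by Fisher's exact test in any of the 4 comparisons. In BT474 only 1 member could be tested for EGF and 2 for HRG, and in BT474R 2 and 3. In BT474 6.46% of all testable regions were called for EGF and 8.98% for HRG, and in BT474R 0% for both. At an unadjusted p below 0.05 EGF-BT474 had 0 members (19% of all testable regions), HRG-BT474 had 1 (24.7%), EGF-BT474R had 0 (4.08%) and HRG-BT474R had 0 (2.31%). In level, limma called 4 of 25 members for EGF-BT474, all higher, beside 18.8% of all 36820 regions (17.6% higher). It called 5 of 25 for HRG-BT474, 2 higher and 3 lower, beside 18.7% (13% and 5.71%). In BT474R it called 0 of 20 after EGF beside 14.2% of 28260 regions, and 0 of 20 after HRG beside 8.2%. At an unadjusted p below 0.05 these were 1 member (24.9% of all regions) and 2 members (22.9%).

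Region 19 (chr3:124878528-124879293), at an alternative ITGB5 start 74.9 kb downstream of the MUC13 start, moved most. Its percentile in BT474 ran from 26.4 to 59.4 with a median of 40.4 in control, from 69.5 to 83.3 with a median of 73.9 after EGF, and from 66.2 to 82.5 with a median of 76.8 after HRG. Every ligand library was above every control library. Averaged over times, EGF differed from control by 34.3 points (SE 2.58, limma adjusted p = 3.09e-06) and HRG by 35.1 points (SE 2.58, adjusted p = 2.02e-06). In BT474 the EGF difference was 17.4 at 1 h (adjusted p = 0.0553), 37.2 at 12 h and 48.3 at 24 h, and the HRG difference was 16.2, 39.0 and 50.2, these last 5 all called. The HRG call at 1 h was lost without replicate 1 of control (9.62 points), replicate 1 of HRG (19.1) or replicate 2 of HRG (13.3) at that time, and with ranks per bp (21.6, adjusted p = 0.263). The baseline libraries stood at 48.1 and 47.3. Part of the growth with time lay in the controls, whose duplicates stood at 46.2 and 59.4 at 1 h and at 26.4 and 31.2 at 24 h.

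In BT474R region 19 had a peak in 2 of 6 control libraries, both at 1 h and at percentiles of 5.9 and 5.0, and in all 6 libraries of each ligand. After EGF the duplicates stood at 47.9 and 42.4 at 1 h, 55.7 and 47.4 at 12 h, and 75.2 and 79.5 at 24 h. After HRG they stood at 39.3 and 39.2, 25.7 and 32.0, and 20.7 and 26.2. The ligand and control libraries did not overlap. In the main comparison neither presence (6 against 2, where no p below 0.05 can be reached at that total) nor level (4 controls without a peak) could be tested. With equal numbers of top peaks per library the 2 weak control peaks fell away. The 1 member then called in presence for EGF in BT474R was this region by its values, beside 263 of 3418 regions. Whether the responses of the lines differ was therefore not tested at this region.

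Region 17, in an intron of ITGB5 and with AP-1 letters as in region 19, ran from 5.0 to 30.1 in control-BT474, from 30.3 to 45.9 after EGF and from 28.5 to 44.6 after HRG. All EGF libraries were above all control libraries, and 1 HRG library lay below the highest control. The differences were 22.8 points for EGF (SE 4.18, adjusted p = 0.00164) and 19.3 for HRG (SE 4.18, adjusted p = 0.00518). In BT474R it had a peak only in 1 EGF library at 24 h, at percentile 4.8.

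Region 25, 4.6 kb upstream of MUC20, had a peak in no control library of BT474, in 2 of 6 after EGF and in 5 of 6 after HRG (Fisher's exact test for HRG, p = 0.0152, adjusted p = 0.0615). In BT474R it was found in 1 of 6 control libraries, 5 of 6 after EGF and 4 of 6 after HRG. At 24 h the BT474R duplicates stood at 0 and 1.0 in control, 51.2 and 59.9 after EGF, and 36.2 and 34.2 after HRG. After adjustment region 25 was called in neither line.

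**Figure D4:**
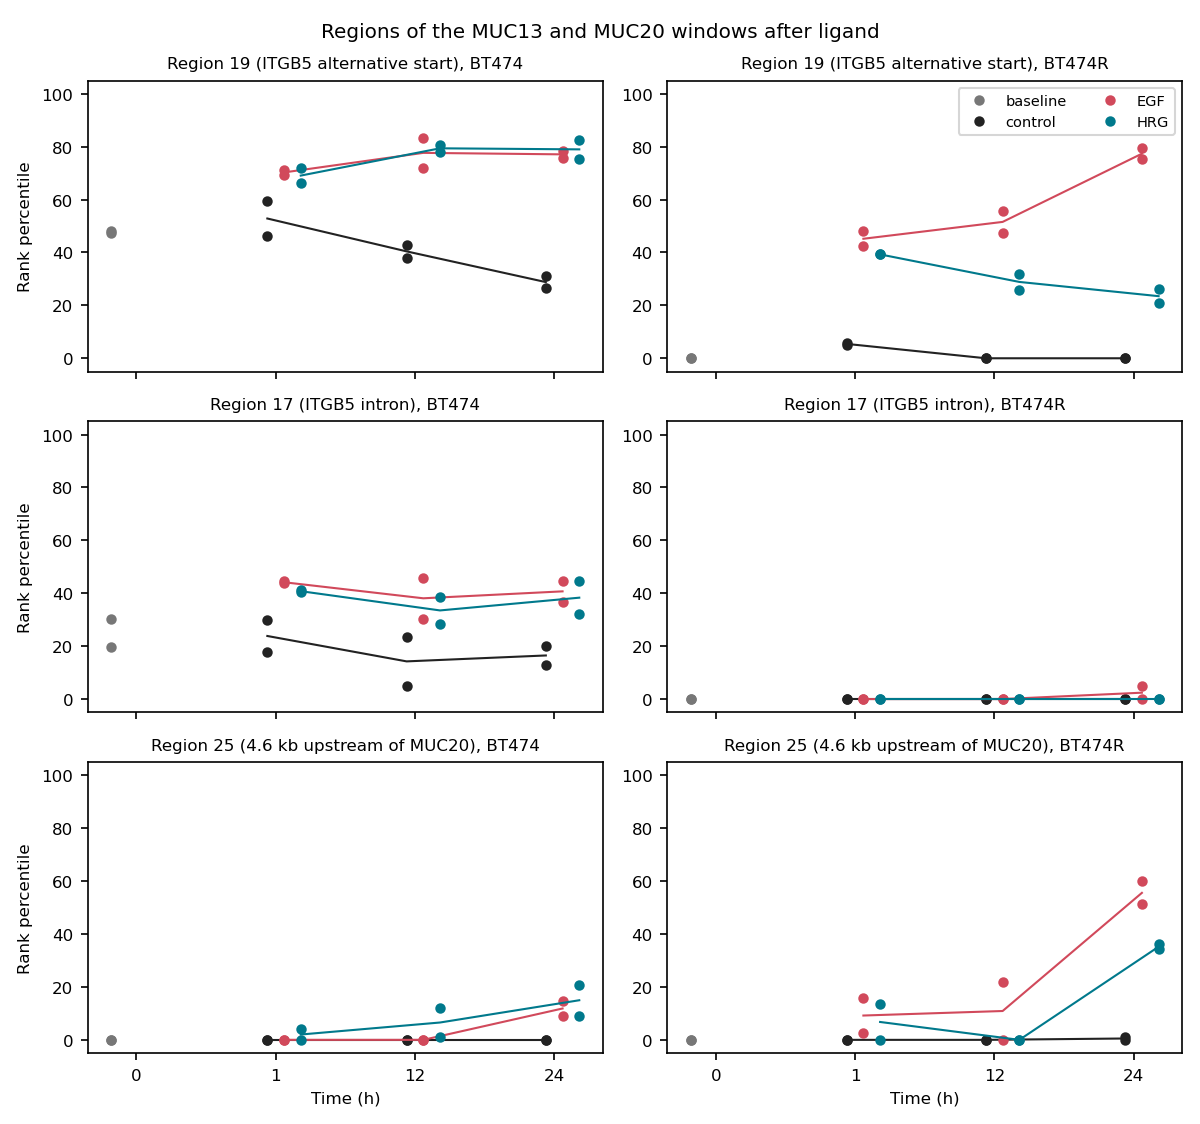
Rank percentile (0 = no peak) by time in h for regions 19, 17 and 25 in BT474 (left) and BT474R (right), with a point per library and lines through the means of the duplicates at 1, 12 and 24 h. Times are evenly spaced, not to scale. In region 19 the ligand libraries lie above the controls in both lines, and in region 25 of BT474R the EGF libraries at 24 h stand at 51.2 and 59.9.

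Region 8 in MUC1 moved the other way. In BT474 it ran from 41.5 to 51.5 with a median of 48.5 in control and from 11.4 to 50.1 with a median of 38.3 after HRG, so the groups overlapped. The difference was -12.9 points (SE 3.03, adjusted p = 0.00882), a call lost with ranks per bp (-5.10, adjusted p = 0.364) and by −log10 p (-8.00, adjusted p = 0.275). It lay mainly at 1 h, where the HRG duplicates stood at 11.4 and 22.9 and the controls at 46.8 and 50.2, a difference of -31.3 (SE 5.25, adjusted p = 0.00261). At 12 h and 24 h the HRG differences were -0.80 and -6.50, neither called. EGF at 1 h gave 32.7 and 28.7, a difference of -17.8 that was not called (adjusted p = 0.0926). Ranked by the −log10 p of the peak, the HRG difference at 1 h was -15.8 (adjusted p = 0.273), and by the area score per bp it was -10.5 (adjusted p = 0.345).

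In BT474R region 8 ran from 67.2 to 83.5 in control and from 77.3 to 83.1 after HRG, a difference of 3.27 points (SE 2.12, adjusted p = 0.399). The HRG effect was 16.1 points more positive in BT474R than in BT474 (SE 3.80, limma interaction, adjusted p = 0.0286). This was the only interaction called among the 18 members for HRG, beside 1.56% of all regions and with a median of 1.85 points over all regions, and none was called for EGF, beside 3.04% (at an unadjusted p below 0.05, 0 beside 15.4%). The HRG interaction was lost in 15 of 45 alternatives, among them leaving out any of 12 single libraries.

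At the MUC20 promoter, region 27, control-BT474 ran from 57.9 to 62.8 and HRG-BT474 from 45.2 to 62.0. The difference was -6.88 points (SE 1.60, adjusted p = 0.00813), and with ranks per bp -19.3 and not called (adjusted p = 0.119). It was largest at 24 h, where the HRG duplicates stood at 45.2 and 49.2 and the controls at 60.7 and 62.8 (-14.5 points, SE 2.77, adjusted p = 0.00435). EGF gave -2.72 points (SE 1.60, adjusted p = 0.288). The MUC1 promoter differed by 0.99 points (SE 0.86) after EGF and 1.45 (SE 0.86) after HRG in BT474, and by 0.062 (SE 0.29) and 0.15 (SE 0.29) in BT474R, none called. The MUC4 region 31 differed by 1.76 points after EGF in BT474 (SE 0.53, adjusted p = 0.0336), where controls ran from 88.4 to 89.2 and EGF libraries from 87.5 to 91.8. That call was lost in 13 of 27 alternatives, 9 of which left out 1 library (at 1.20 to 1.86 points): either control at 1 h or 24 h, replicate 1 of control at 12 h, replicate 1 of EGF at 1 h, replicate 2 of EGF at 12 h or either EGF library at 24 h. In BT474R the difference was 2.58 points (SE 1.02, adjusted p = 0.125).

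**Figure D5:**
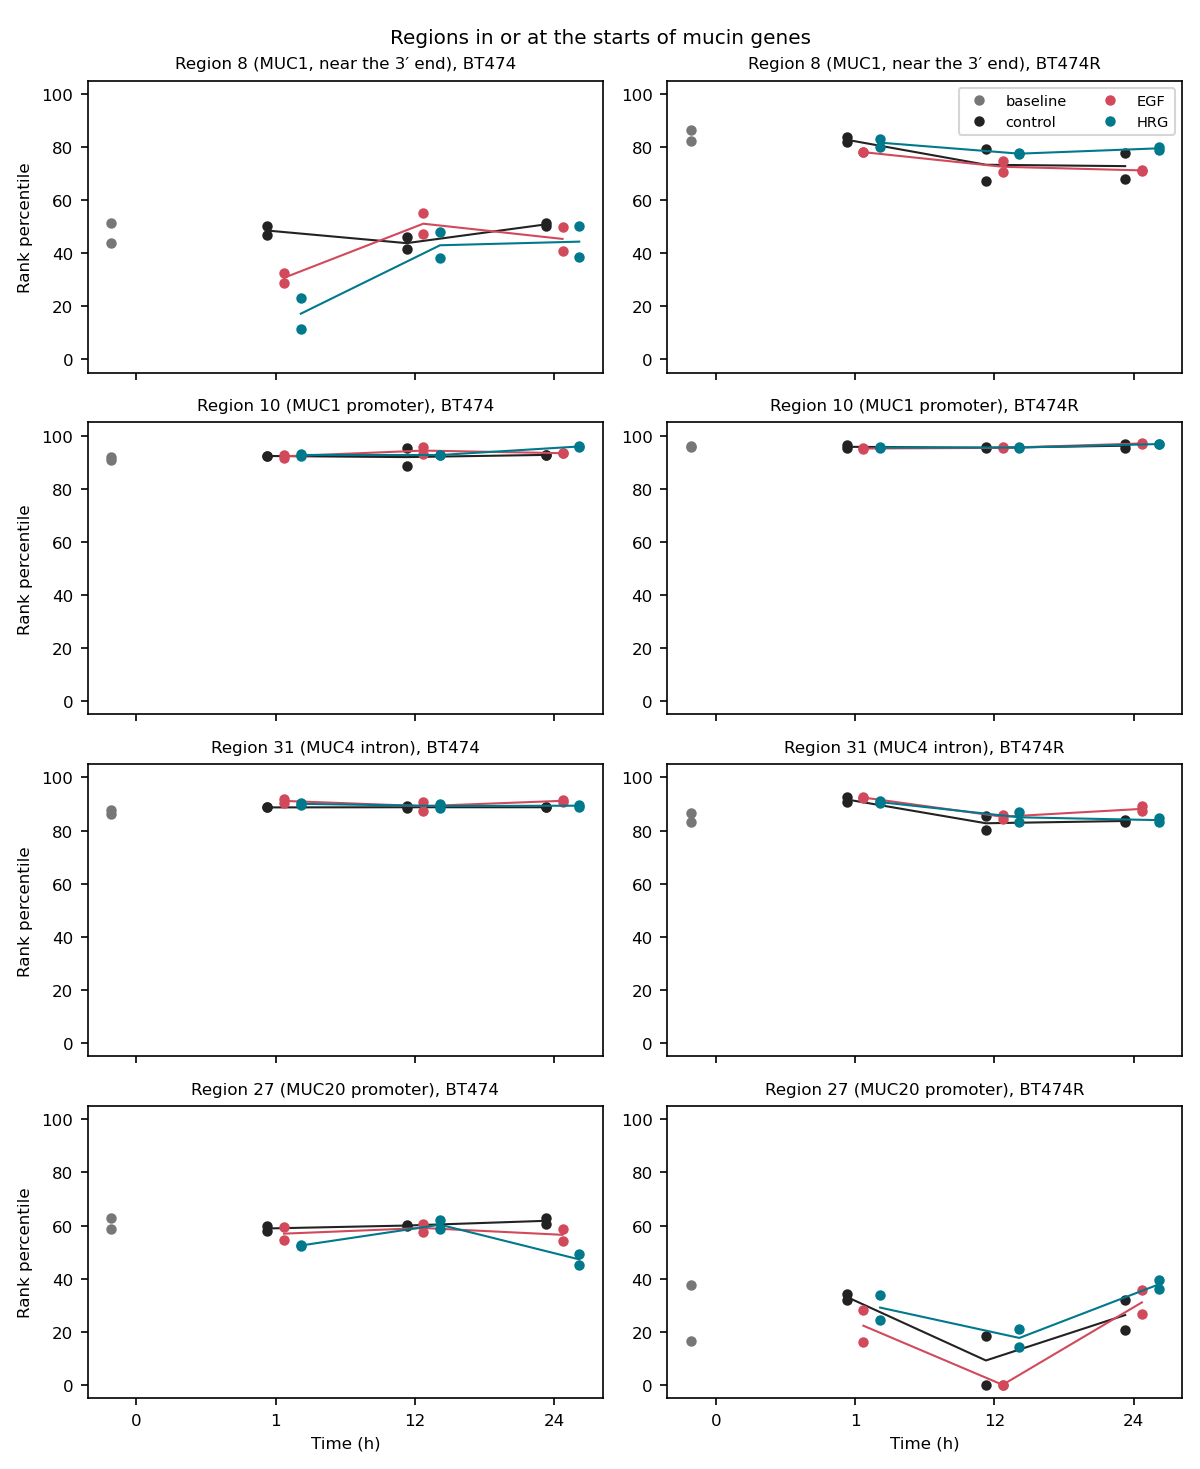
Rank percentile (0 = no peak) by time in h for the MUC1 regions 8 and 10, the MUC4 region 31 and the MUC20 promoter in BT474 (left) and BT474R (right), with a point per library and lines through the means of the duplicates at 1, 12 and 24 h. Times are evenly spaced, not to scale. Region 8 falls to 11.4 and 22.9 after HRG at 1 h in BT474, while region 10 stays between 88.5 and 97.1 in all 40 libraries.

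Regions 4 and 37 were also called in BT474. Region 4 rose by 3.08 points after EGF (SE 0.68, adjusted p = 0.00587), a call lost in 4 of 27 alternatives, among them ranks per bp (0.49 points, adjusted p = 0.933). Region 37, in the RefSeq model of MUC16, fell by 7.61 points after HRG (SE 2.13, adjusted p = 0.0232). That call was lost in 7 of 27 alternatives, with ranks per bp (-0.82 points) and, at -7.31 to -6.11 points, without replicate 2 of control at 1 h, replicate 1 of control at 12 h or 24 h, or replicate 2 of HRG at any of the 3 times. At single times 11 of 270 pairs of region and time were called (4.07%), beside 7.72% of all such pairs of region and time. All 11 were in BT474, and 5 of them were region 19.

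Other genes of the mucin system were read at their promoters, defined as the highest region within 1 kb of a start. Of 9 other membrane mucins 4 had such a region, and 2 were called higher in BT474R in level and 2 open less often, where 82.8% of all regions were called in level and 71.7% in presence. MUC3A, a gut mucin, was higher by 20.9 points, while MCAM, the adhesion molecule CD146, was open in all 20 BT474 libraries and in none of BT474R. Of 6 secreted mucins, MUC5AC was open in 14 BT474R libraries and no BT474 library, and MUC5B and MUC19 were open in all 20 BT474 libraries and in 9 and 5 of BT474R. Of 23 enzymes of mucin O-glycosylation, 17 promoters were open in all 40 libraries, 13 of them lower and 2 higher in BT474R, beside 50.2% and 32.6% of all regions. The GalNAc transferase GALNT7 differed by -39.2 points and GALNT14 by 27.9. The core enzyme C1GALT1, which extends the first sugar, differed by -0.19.

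After ligand, no promoter of the other mucins or of the O-glycosylation enzymes was called in either line. Of 7 binding partners of mucins, CTNND1, the p120 catenin that binds cadherins, was higher after both ligands in both lines. It was the 1 partner called in each of the 4 comparisons, beside 18.8% of all regions for EGF and 18.7% for HRG in BT474 and 14.2% and 8.2% in BT474R. In BT474 its differences were 6.36 points for EGF and 5.67 for HRG, and in BT474R 11.5 and 9.12. Between the lines 1 partner was called higher in BT474R and 4 lower, beside 32.6% and 50.2% of all regions. ERBB2 stood at a median of 100 in BT474 and 99.998 in BT474R and differed by -0.0018 points between the lines (limma adjusted p = 0.955). At the top of the scale a rank percentile can hardly differ, so this does not show equal accessibility. CTNNB1, or beta-catenin, was not called either (-2.79 points, adjusted p = 0.390). EGFR was higher in BT474R by 6.10 points (adjusted p = 1.26e-08). Lower were CTNND1 by -8.61 points, the galectin LGALS3 by -8.43, ERBB3 by -1.09 and JUP, or plakoglobin, by -0.29. Of the markers of other cell types, the promoter of CDH5, an endothelial cadherin, was also called higher after both ligands in BT474 (8.69 and 8.05 points) and after HRG in BT474R (11.2 points), and its part in the results above was not tested.

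Promoters of other genes whose percentile varied most like that of a mucin region over the 40 libraries were found by Spearman correlation among 18270 promoter regions more than 1 Mb away. These values are a description, since the libraries share their line and list length. For region 8 of MUC1 they were RNF10 (rho 0.940), CATSPERE (0.929) and MYO1H (0.928). For the MUC1 promoter they were DHRS3 (0.856), DPP9 (0.844) and ERBB3 (0.837), the last at a region of an ERBB3 start that was at a median of 0 in BT474 and 56.8 in BT474R. For the MUC20 promoter they were ASAP3 (0.941), RHOBTB1 (0.935) and PTPRN (0.934).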

How the data were processed

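As the study describes, the authors trimmed ATAC-seq reads, mapped them to GRCh38 and called peaks with Genrich in each library. The options, the use of its ATAC mode and the treatment of multiply mapped reads are stated in none of the sources used here. The deposited lists hold for each peak a signal (the area under the curve of significance, at least 200 in every list) and a −log10 p, which the authors' caller computed. Read counts were not analysed here, so the study's count model was not run.

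Regions came from merged peaks on chromosomes 1 to 22 and X, and genes from GENCODE 44. Groups came from the labels. The percentile ranks the signal within a library. Presence was compared with Fisher's exact test (two-sided) and percentiles with limma 3.58.1 in R 4.3.3 on group means, ligand against control averaged over 1, 12 and 24 h, at regions with a peak in every library of the fit. p-values were adjusted by Benjamini-Hochberg over all regions tested, with a threshold of 0.05. Both were tested on simulated data. The 5 genes and the gene lists were chosen with earlier results of these data known. Regions were named if within 1 kb of a mucin start, strongest at a gene or called (at most 8 per comparison, by p), or, where none was called, by the 2 smallest unadjusted p. Some called regions outside this rule were also named after their values were seen. Motif letters were searched on both strands. The sequence of 1 region and the level of 1 uncalled region are not reported here. Figures were drawn with matplotlib 3.10.9, and sequences were read with pysam 0.24.0. Fisher's test came from scipy 1.17.1, and tables were handled in Python 3.11.15.

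The alternatives were a signal minimum of 400, as many top peaks in each library as in the shortest list (32479), 50% of the region covered, regions in 4 or more lists, 400 bp around the summit, a replicate block, each library left out, ranks by signal per bp or by −log10 p, log2 signal after quantile normalization, baseline and control libraries alone (8 per line) and, added after the data were seen, no BT474R libraries at 12 h.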

Additional observations from a re-analysis of the deposited data

Results flagged for a closer look

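In region 31 of MUC4, replicate 1 of EGF-BT474 at 12 h stood at percentile 87.5, below the other 5 EGF libraries, which ran from 90.5 to 91.8. This was the 1 gap marked among 42 sets of 6 libraries examined over 8 regions, where chance marks about 1 in 20. Marks were thus no more frequent than chance gives. Each set also mixes libraries of 1, 12 and 24 h.

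In region 8 of MUC1 the HRG effect differed between lines by 16.1 points (limma interaction, adjusted p = 0.0286), with -12.9 points in BT474 and 3.27 in BT474R.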

How the results depend on the processing

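The numbers of members called were recomputed under each alternative. The line comparison of presence (12 called) gave 6 with baseline and control libraries alone (fewer samples), 10 at a signal of at least 400 (regions 1 and 23 no longer called), 11 without the BT474R libraries at 12 h, 13 with equal numbers of peaks, 15 at 50% coverage and 12 to 13 without any 1 library. Regions 9, 29, 32, 34 and 35 had no counterpart at that signal or with equal numbers of peaks. The 10 and the 13 thus include regions not called in the main comparison. That of level (16) gave 12 to 17 over the alternatives and 15 to 17 without any 1 library. With baseline and control libraries alone the calls of regions 1, 7, 21, 23, 29, 32 and 35 were among those lost. For level, EGF-BT474 (4) gave 2 at a signal of at least 400, 1 with equal numbers of peaks, and 2 each with ranks per bp and by −log10 p, and HRG-BT474 (5) gave 2 at a signal of at least 400 and 3 per bp. Leaving out 1 library gave 3 to 5 and 4 to 6. The HRG interaction (1) was 0 after log2 quantile normalization, at a signal of at least 400, with equal numbers of peaks and by −log10 p, and 0 to 3 without 1 library. It was 0 without replicate 2 of control-BT474 or replicate 1 of HRG-BT474 at 1 h, replicate 1 of HRG-BT474 at 12 h, replicate 2 of control-BT474 or replicate 1 of HRG-BT474 at 24 h, and, in BT474R, replicate 2 of control or of HRG at 1 h, replicate 1 of control or either replicate of HRG at 12 h, or replicate 1 of control at 24 h. It was 2 without replicate 2 of HRG-BT474R at 24 h and 3 without replicate 2 of control-BT474R at 12 h. Without that library EGF-BT474R and HRG-BT474R in level (0 each) were 2 and 3, their highest (ranges 0 to 2 and 0 to 3), and the single-time count (11) was 20. That count was 7 without replicate 1 of HRG-BT474 at 1 h, 4 at a signal of at least 400, 7 with equal numbers of peaks and 5 per bp. EGF-BT474R gave 1 with equal numbers of peaks in presence (region 19 by its values, higher after EGF) and 1 in level. HRG-BT474 in presence gave 0 to 1, the 1 without replicate 1 of HRG at 1 h. Ranked per bp, region 2 reversed between lines to -6.47, region 38 to 9.80 and region 4 after EGF at 24 h in BT474 to -0.12. The causes were not tested. The line calls of regions 8, 9, 14, 17, 19, 28, 33 and 34 held in every alternative in which they could be compared. Regions 8, 9, 33 and 34 had no counterpart to compare at a signal of at least 400 or with equal numbers of peaks. Those settings therefore do not bear on them. The ligand calls of regions 8, 17 and 19 in BT474, and the HRG interaction of region 8, likewise had no counterpart there. The lower counts in those settings thus do not show that these calls were lost. Averaged over times, the calls of regions 17 and 19 held for both ligands in all 25 alternatives in which they could be compared.

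Replicate numbers were not shown to pair the libraries. Over 45 pairs of groups per line the median correlation of deviations was -0.0017 in BT474 and 0.0063 in BT474R, with 4 and 10 pairs over 0.1. With a replicate block the counts were 12 for presence between lines, 16 for level, 4 for EGF-BT474, 5 for HRG-BT474 and 1 for the HRG interaction, as without it, and 12 against 11 at single times. Peaks under a signal of 200 were not listed, which limits what a missing peak shows.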
